A study of Mus musculus with 8 samples.

Results

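The iron handling genes described here are Tfrc, Steap3 and Slc11a2 (uptake), Slc25a37 and its partner Abcb10 (mitochondrial import), Fth1 (storage), Slc40a1 (export), Hmox1 (heme breakdown), and Ireb2 and Aco1 (regulation). They were chosen by name, with earlier results of these data known. All 10 were found among the 11364 genes listed in the tables of newly transcribed RNA. ChIP-seq sites were assigned to them where the site table gave one of them as the closest transcription start site (TSS), which held for 8 of 5551 sites, at 5 of the 10 genes.

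The study examined a mutant of the erythroid transcription factor KLF1, E339K, whose human counterpart causes a congenital dyserythropoietic anemia. K1 cells are an immortalised erythroid line from fetal liver of Klf1-/- mice. K1-E339K-ER cells (K1-CDA-ER in the labels) carry the mutant fused to an estrogen receptor domain, brought in by an MSCV retrovirus and sorted for GFP, so that 4-hydroxytamoxifen (4-OHT) moves the protein into the nucleus. The K1-ER line carries the wild type fusion (KLF1-ER) and comes from earlier work of the same group, as do the ChIP libraries behind its concentrations. At each site the protein and the experiment therefore cannot be told apart, and how those libraries were normalized against the mutant library is not given in the sources used here. For ChIP-seq, 1 K1-E339K-ER clone (2A) was treated with 200 nM 4-OHT for 3 h, and 1 library was made from 3 pooled replicates, beside 1 input library. Labelled RNA (500 µM 4-thiouridine, 4sU, for 30 min by the labels, whereas the methods of the study state another dose and time) was sequenced from 3 K1-E339K-ER clones (1B, 2A and 2B) in 200 nM 4-OHT and from 3 K1 libraries without a transgene, of which 2 were labelled 4-OHT and 1 ethanol vehicle.

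Each gene had 1 mean level over the libraries of the fit and each site 1 concentration per protein. No value per library was used, so no error between replicates is given, and the depth behind each value is unknown. The p-values and FDR of the authors' own comparisons were left unused, so no p-value is given. The levels hold K1 and transgenic cells together and show no effect of either protein. They are the same in the comparisons of both proteins, so they may also hold K1-ER libraries of earlier work. Which libraries entered the mean is not given in the sources used here.

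Developing red cells take up transferrin-bound iron through the transferrin receptor, reduce it in the endosome, move it into the cytosol and pass most of it to mitochondria for heme synthesis. Iron that is not used is stored in ferritin or leaves the cell through ferroportin. Iron regulatory proteins bind hairpins in the messenger RNAs of several of these genes and set their translation or stability by the amount of iron.

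Sequences at the sites are given first. KLF1 recognises a G-rich element whose central base is a pyrimidine, and 2 groups of words were searched on both strands. The pyrimidine form was GGGCGTGG, GGGCGGGG, GGGTGTGG or GGGTGGGG, and the purine form was GGGAGTGG, GGGAGGGG, GGGGGTGG or GGGGGGGG. Words of the forms can overlap in runs of G. The GATA word was AGATAA or TGATAA. Within 50 bp on both sides of the midpoint, the pyrimidine form lay at 35.4%, the purine form at 35.7% and the GATA word at 14.5% of all 5551 sites. Sequences are the + strand of mm9 (NCBIM37), with matching bases in capitals. A match describes letters and shows no binding of a factor to them.

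Tfrc is read from the + strand, and the stretch shown is chr16:32608963-32609035, cut at 30 bases of the annotated first exon. The words GGGGGTGG (purine) and GGGTGGGG (pyrimidine) overlap in it, so 1 run of bases counts for both forms.
Tfrc promoter: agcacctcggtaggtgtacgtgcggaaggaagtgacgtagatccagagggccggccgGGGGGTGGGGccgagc
Steap3 is read from the - strand, and chr1:122167658-122167758 held 1 pyrimidine word on that strand and 1 GATA word.
Steap3 promoter: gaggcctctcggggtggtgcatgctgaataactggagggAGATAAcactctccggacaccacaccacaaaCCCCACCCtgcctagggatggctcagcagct
In the Slc11a2 intron, chr15:100250454-100250554 held 2 copies of GGGAGGGG, the purine form, and 2 GATA words.
Slc11a2 intron: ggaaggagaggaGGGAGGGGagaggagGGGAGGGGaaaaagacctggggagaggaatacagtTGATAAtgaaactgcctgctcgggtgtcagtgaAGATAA

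Slc25a37 and Abcb10 are shown next, because the widest differences between the proteins were at sites of these genes. The Slc25a37 site nearer the TSS (chr14:69894941-69895041) held 1 purine word, and the one farther into the gene (chr14:69878170-69878270) held 1 GATA word and neither form of the KLF1 element.
Slc25a37 intron, near: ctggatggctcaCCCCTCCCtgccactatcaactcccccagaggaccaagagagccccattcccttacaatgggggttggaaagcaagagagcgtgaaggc
Slc25a37 intron, far: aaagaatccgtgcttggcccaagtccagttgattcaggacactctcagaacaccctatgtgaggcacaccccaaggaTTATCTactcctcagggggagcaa
At Abcb10, the upstream site (chr8:126512703-126512803) held a GATA word on the - strand near its midpoint. The intron site had no match within 50 bp, and is shown over 100 bp on both sides (chr8:126502840-126503040), where 3 copies of GGGTGGGG and 1 of GGGGGTGG overlapped on the - strand.
Abcb10 upstream: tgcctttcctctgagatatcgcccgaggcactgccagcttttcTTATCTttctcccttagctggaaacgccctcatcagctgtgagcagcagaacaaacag
Abcb10 intron: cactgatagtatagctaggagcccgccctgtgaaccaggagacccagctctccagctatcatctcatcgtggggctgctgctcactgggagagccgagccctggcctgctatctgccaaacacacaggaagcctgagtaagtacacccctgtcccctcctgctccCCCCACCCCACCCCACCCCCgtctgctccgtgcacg

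Across the 8 sites, 2 held the pyrimidine form, 3 the purine form and 4 the GATA word within 50 bp of the midpoint. Over all sites the shares were 35.4%, 35.7% and 14.5%, and 8 sites are too few to set a share against these. The promoter site of Abcb10 held none of them.

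A site was counted as higher for 1 protein where the concentrations, log2 values of the normalized read count as the authors give them, differed by at least 1 (a 2-fold difference). By that rule 28.7% of all 5551 sites were higher for KLF1-ER and 61.5% for KLF1-E339K-ER. Of the 8 iron gene sites, 2 were higher for KLF1-ER, 4 for KLF1-E339K-ER and 2 differed by less. With a difference of at least 2 the iron gene sites split 2 to 2, beside 23.3% and 55.3% of all sites. When each concentration was set against the 90th percentile of its own column, an alternative added after the data were seen, the balance turned to 3 for KLF1-ER and 2 for the mutant, beside 31% and 58.3% of all sites. As the closest TSS of a site, 26.6% of the listed genes appeared, and 38.2% of those above the 75th percentile of the mean level (a background added after the data were seen), where 8 of the 10 iron genes lay.

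Abcb10, an inner mitochondrial membrane transporter that stabilises mitoferrin 1, had 3 sites, a number reached by 10.8% of the 3670 genes with any site. At the site 5.73 kb upstream (chr8:126512588-126512919), outside the annotated gene, the concentration was 5.83 for KLF1-ER and 1.03 for KLF1-E339K-ER, a difference of 4.80. At the promoter site (chr8:126506825-126507131), centred 44 bp downstream of the TSS in the untranslated first exon, it was 4.91 for KLF1-ER and 2.43 for the mutant. Both were higher for KLF1-ER, by 27.9-fold and 5.58-fold, the former against a mutant value near the bottom of its column (percentile 7.49, lowest value -0.38), so that this ratio depends on how the lowest counts were normalized.

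The third Abcb10 site lay in an intron 4.08 kb downstream of the TSS (chr8:126502712-126503168) and went the other way. It carried 6.02 for KLF1-ER and 7.13 for KLF1-E339K-ER, at percentiles 91.7 and 97.3 of all sites. The difference of 1.11 was just over the limit, and fell to 0.60 with the added scaling. The gene thus had sites on both sides of the comparison within 10 kb of its start.

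Slc25a37 (mitoferrin 1), the importer that brings iron into the mitochondria of red cell precursors, had 2 sites, both in its introns and both higher for the mutant. The site 8.17 kb downstream of the TSS (chr14:69894838-69895145) had 0.50 for KLF1-ER and 5.93 for KLF1-E339K-ER, and the one at 24.94 kb (chr14:69878063-69878378) had 0.91 and 4.60. These differences of 5.43 and 3.69 set the mutant against wild type values near the bottom of their column. Only 1 lower value than 0.50 occurred there, -0.09 at 1424 sites, so the ratios of 43.1 and 12.9 depend on how the lowest counts were normalized.

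Upstream of Slc25a37, 3 of the 4 nearest sites were higher for KLF1-ER and 1 for the mutant, at sites named here after their values were seen. Over all sites the shares were 28.7% for KLF1-ER and 61.5% for the mutant. A pair of sites assigned to Synb lay 19.88 kb (chr14:69922883-69923203) and 23.01 kb (chr14:69926014-69926334) upstream of the Slc25a37 TSS. The nearer one had 5.58 for KLF1-ER and 2.67 for the mutant, and the farther one 5.16 and 4.11. Both were thus higher for KLF1-ER, by 2.91 and 1.05, and each held a GATA word, TGATAA, within 50 bp of its midpoint and neither form of the KLF1 element.
Slc25a37 upstream, near: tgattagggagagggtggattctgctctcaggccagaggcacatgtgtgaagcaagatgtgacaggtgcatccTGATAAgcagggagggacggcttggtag
Slc25a37 upstream, far: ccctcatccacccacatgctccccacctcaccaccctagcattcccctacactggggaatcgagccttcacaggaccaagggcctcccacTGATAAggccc
The stretches shown are chr14:69922993-69923093 and chr14:69926124-69926224. Farther upstream, 2 sites assigned to Gm16677 lay at 33.29 kb (3.00 for KLF1-ER, 5.55 for the mutant) and 36.93 kb (7.20 for KLF1-ER, 5.32 for the mutant).

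**Figure D1:**
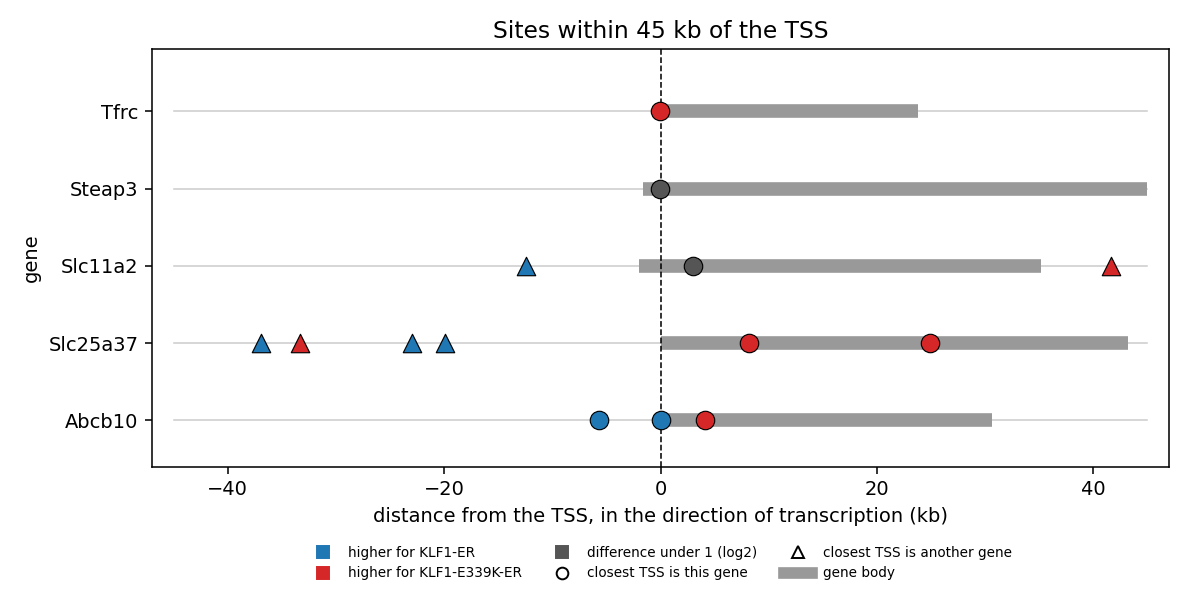
Sites within 45 kb of the TSS of the 5 iron genes with a site, along the direction of transcription in kb (x axis), with the gene on the y axis. Circles are sites whose closest TSS is that gene, triangles sites closest to another gene, colours the protein with the higher concentration, and grey bars the annotated gene. Slc25a37 had mutant-higher circles inside the gene and 3 wild type-higher triangles among the 4 upstream. Of all sites, 28.7% were wild type-higher and 61.5% mutant-higher.

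Tfrc, the transferrin receptor that takes up transferrin-bound iron, had 1 site over its start (chr16:32608852-32609175), centred 31.5 bp upstream of the listed TSS and inside the untranslated first exon of an annotated transcript. The concentration was 3.61 for KLF1-ER and 4.69 for KLF1-E339K-ER. The mutant was 2.11-fold higher by the values as given, and the difference of 1.08 fell to 0.57 with the added scaling. Both values were in the middle of their columns, at percentiles 55.3 and 43.5.

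Steap3, the ferrireductase of the endosome, also had a promoter site (chr1:122167537-122167880), centred 49.5 bp upstream of the listed TSS and in an intron of a longer transcript. KLF1-ER had 5.02 and KLF1-E339K-ER 4.27, a difference of 0.75 that stayed under the limit and rose to 1.26 with the added scaling.

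Slc11a2 (DMT1), which carries ferrous iron out of the endosome, had its site in an intron 2.98 kb downstream of the TSS (chr15:100250348-100250660). It had 4.79 for KLF1-ER and 5.46 for KLF1-E339K-ER, within 0.67 of each other. A site assigned to Gm5475, 12.41 kb upstream of the Slc11a2 TSS, had 4.72 for KLF1-ER and -0.38 for the mutant, the lowest value of its column, so that its difference of 5.10 depends on that floor. A site assigned to Higd1c, 41.61 kb downstream, had 0.50 for KLF1-ER, again near the bottom of the column, and 5.94 for the mutant. These neighbouring sites were named after their values were seen.

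**Figure D2:**
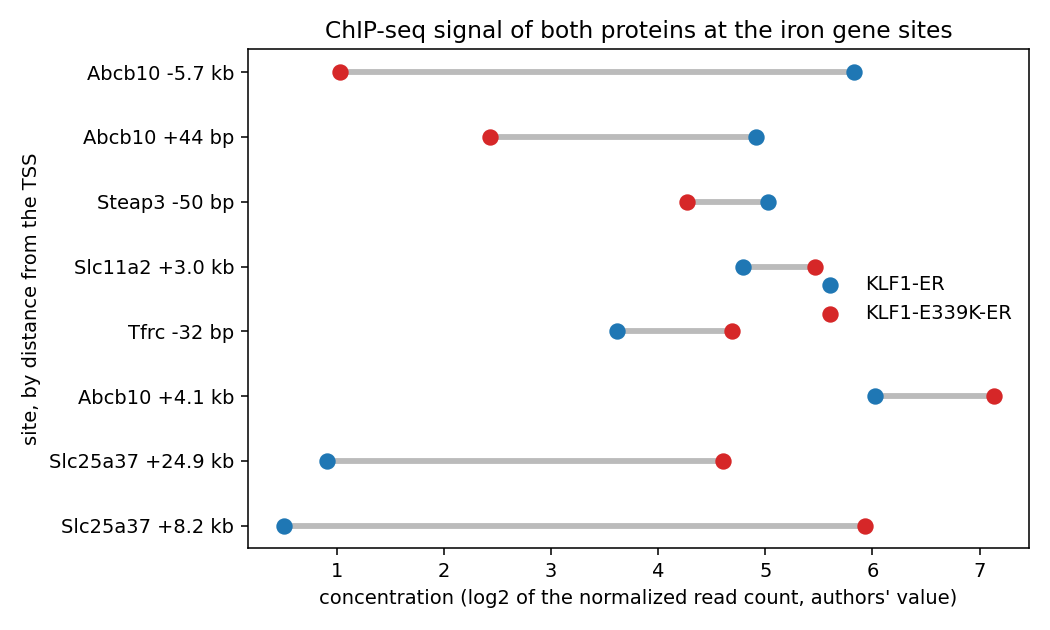
Concentration of KLF1-ER and KLF1-E339K-ER at the 8 iron gene sites, each a log2 value of the normalized read count (x axis), with the sites named by gene and distance from the TSS (y axis). Each point is 1 value as the authors give it, with no error. The Abcb10 sites at the top and the Slc25a37 sites at the bottom are farthest apart, from 4.80 in favour of KLF1-ER to 5.43 in favour of the mutant.

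No site was assigned to Fth1, Slc40a1, Hmox1, Ireb2 or Aco1. Measured from their annotated protein-coding starts, the nearest site lay 31.47 kb from Fth1, the ferritin heavy chain, and was assigned to Rab3il1 (4.84 for KLF1-ER, 5.39 for the mutant, a site outside the naming rule). It was 164 kb from Slc40a1 (ferroportin), the iron exporter, and 225 kb from Ireb2, which encodes iron regulatory protein 2. For Aco1, the cytosolic aconitase that acts as iron regulatory protein 1, the distance was 695 kb, and for Hmox1, the inducible heme oxygenase, it was 1506 kb. Over the 10636 listed genes with a distance the median was 50.9 kb, so Fth1 was nearer to a site than most of them and the other 4 were farther.

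**Figure D3:**
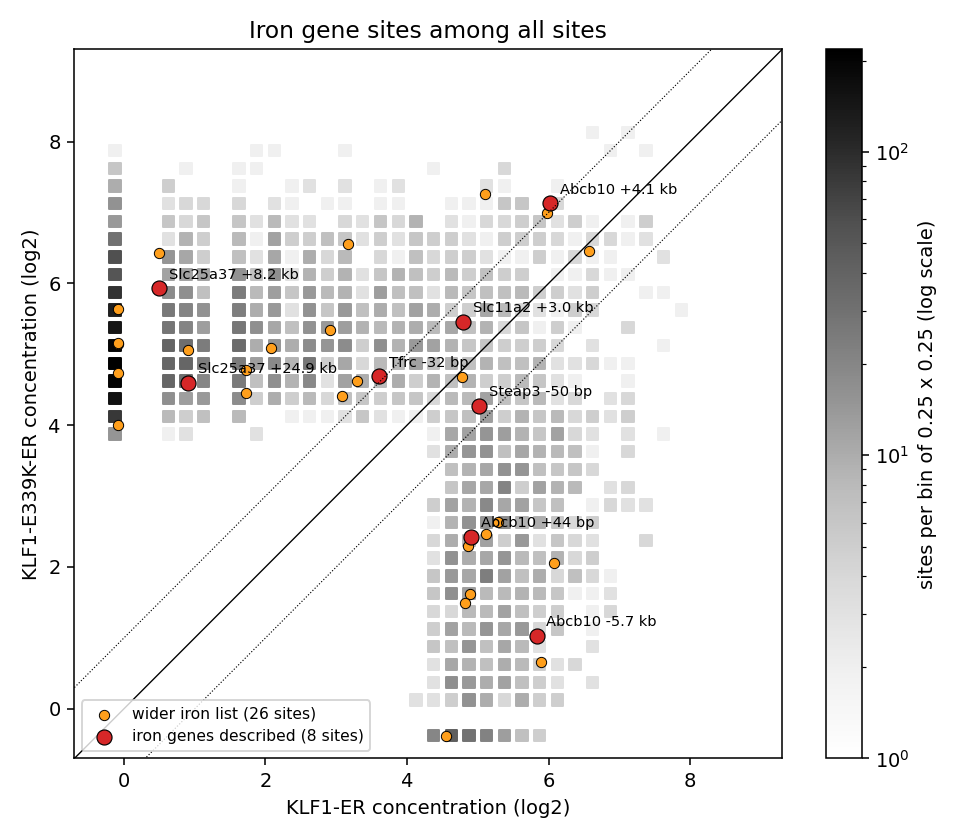
Concentration of KLF1-ER (x axis) against that of KLF1-E339K-ER (y axis), both log2, over all 5551 sites, shaded by the number of sites per bin on a log scale. The solid line marks equal values and the dotted lines a difference of 1; red points are the 8 iron gene sites and orange points the 26 sites of the wider iron list. The Abcb10 points at -5.7 kb and +44 bp lie opposite the Slc25a37 points, the Abcb10 point at +4.1 kb lies on the same side as them, and the Tfrc, Steap3 and Slc11a2 points lie near the line.

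Levels in labelled RNA were compared between genes per length, as the mean log2 CPM less the log2 of the listed gene length in kb. Lengths were close to the genomic span for the iron genes other than Fth1 and Steap3, and the sources used here do not say whether introns were counted. On this scale 9 of the 10 genes were above the median of all listed genes (0.82), and the median of the 10 was 2.67.

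Abcb10 was highest of the 10, at 5.55 per kb (percentile 98.0), and also had the highest mean log2 CPM among them, 10.49. Fth1 followed at 5.20 (percentile 97.4), but it has processed copies elsewhere in the genome that can share reads, and its listed length of 4512 bp differs from its annotated span, so its value is uncertain. Hmox1 came next with 4.19 (percentile 93.7), above Tfrc with 3.50 (percentile 89.1). This order rests on the length: by mean log2 CPM alone Tfrc, at 8.08, was above Fth1 (7.37) and Hmox1 (6.99), as were Slc25a37 (8.07) and Slc11a2 (7.85).

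Slc11a2, of the endosome, and Slc25a37, of the mitochondrion, were 0.08 apart, at 2.71 per kb (percentile 80.8) and 2.63 (percentile 79.9). Both regulators were lower, Ireb2 at 1.44 (percentile 60.6) and Aco1 at 0.91 (percentile 51.4). Steap3 at 0.83 (percentile 50.1) was next to Aco1, 0.08 below it. Whether neighbours in this order differ beyond the spread of replicates was not tested.

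Slc40a1 stood apart at the lower end. Its level was -1.86 per kb (percentile 16.2), 2.69 below Steap3, and its mean log2 CPM was 2.27. The exporter was the only one of the 10 under the median of all listed genes, although Steap3 was above it by less than 0.01 and is uncertain, since its listed length of 44667 bp is shorter than its annotated span, and Steap3 and Aco1 were also under it among genes with a mean log2 CPM of at least 0.

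**Figure D4:**
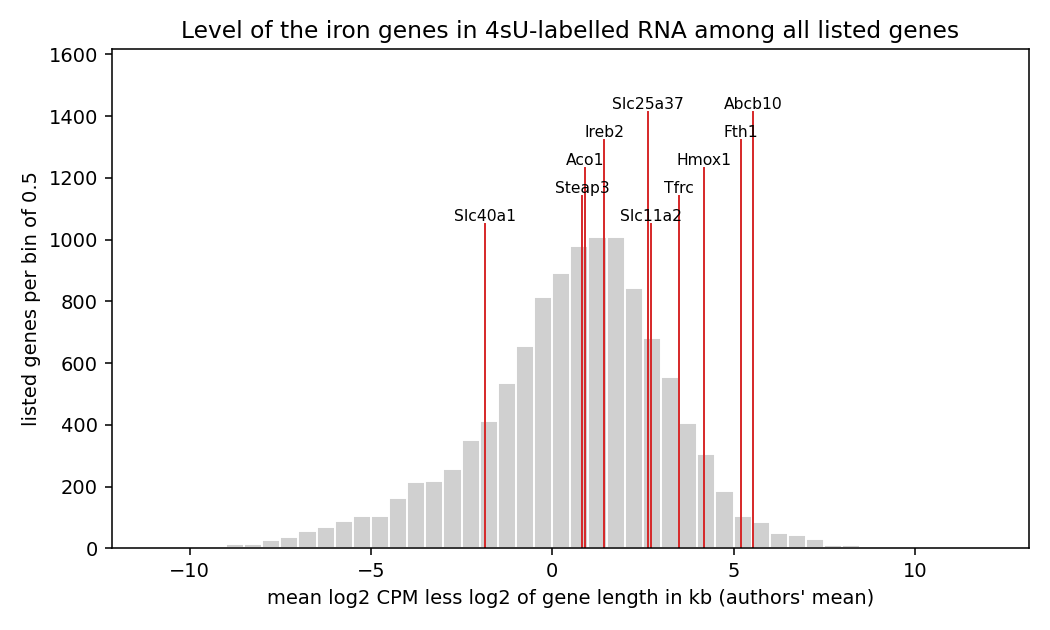
Number of listed genes (y axis) by level per kb, the mean log2 CPM less the log2 of gene length in kb (x axis), for all 11364 genes in grey bars, with the 10 iron genes as red lines. Slc40a1 lies on the left side at -1.86, and Fth1 and Abcb10 lie in the right tail at 5.20 and 5.55.

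The labelled cell type was checked against fixed marker lists. All 12 erythroid markers were listed, with Gata1 at 6.68, Epor at 6.09 and Tal1 at 5.86 per kb, and 10 of them were above the median. Kit at 0.60 and Alas2 at 0.75 per kb were below it. The most abundant were Zfpm1, Gata1 and Tal1, with a mean log2 CPM of 10.80, 9.79 and 9.48, which megakaryocytes also express, while the globin genes Hba-a1 and Hbb-b1 had 3.79 and 3.87. Klf1 itself had 5.09 per kb, a mean in which reads of the transgene and of the disrupted gene cannot be told apart. Of the megakaryocyte markers 2 of 5 were listed (Itga2b at 1.25 and Gp9 at 1.08 per kb), of the macrophage markers 2 of 5 (Emr1 at -3.27 and Cd68 at -0.52), and of the granulocyte markers 3 of 3, the highest Elane at -0.16. None of 4 hepatocyte and 3 lymphocyte markers was listed. Summed over the listed markers, the levels came to 4220 CPM for the erythroid and 42.9 CPM for the megakaryocyte markers. The macrophage markers came to 14.1 CPM and the granulocyte markers to 5.98 CPM. These sums hold 12, 2, 2 and 3 genes in that order and are not set per kb. Zfpm1, Gata1 and Tal1 made the largest parts of the erythroid sum. Both listed megakaryocyte markers were above the median per kb. Csf1r, Marco and Vcam1, the other macrophage markers, were not listed. Macrophages also handle iron through Hmox1 and Slc40a1, and the part of these markers in the level of those genes was not tested.

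Other iron and heme genes were described from a list of 53, of which 36 were in the RNA tables and 23 of these above the median level per kb. The highest were Ftl1, the ferritin light chain, at 7.89, Abcb6, a porphyrin transporter, at 5.01 and Pcbp1, an iron chaperone, at 4.17. Like Fth1, Ftl1 has near-identical copies and is uncertain. The lowest were Cybrd1, a ferric reductase of the gut, at -3.83, the metal transporter Slc39a14 at -2.99 and the folate and heme carrier Slc46a1 at -2.46.

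Of the 36, 17 were the closest TSS of a site (47.2%). The share was 26.6% of all listed genes and 38.2% of those above the 75th percentile of the mean level. The 36 had a median mean log2 CPM of 6.14, against 5.27 for all listed genes. The list was also chosen with earlier results of these data known, so no enrichment is read from its share. With Steap2, which was not in the RNA tables, 18 of the 53 genes had 26 sites. Of these sites, 8 were higher for KLF1-ER, 16 for KLF1-E339K-ER and 2 differed by less than 1. This split is close to the 28.7% and 61.5% of all sites, and the values of single genes are given as a description. Genes with sites higher for KLF1-ER were Slc25a38, which supplies glycine for heme synthesis, Tfr2, Fam132b, Glrx5, Steap2 and Blvrb. Slc25a38 had 4 sites, 3 of them higher for KLF1-ER, the widest with 5.89 against 0.66 for the mutant, near the bottom of its column, at 6.06 kb upstream. Tfr2, a second transferrin receptor, had 4.82 against 1.49 at 0.07 kb downstream. Fam132b (erythroferrone), the hormone by which red cell precursors lower hepcidin, had 6.07 against 2.05 at 0.60 kb upstream. Both mutant values were low in their column, below the 2.43 of the Abcb10 promoter site, which was at percentile 15.9. Glrx5, needed to assemble iron-sulfur clusters, had 4.55 for KLF1-ER and the column's lowest value for the mutant, -0.38.

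Sites higher for the mutant lay at Bach1, Blvra, Blvrb, Exoc6, Fech, Ftl1, Isca1, Lyrm4, Ncoa4, Nfe2l2, Pcbp2, Slc39a8 and Slc46a1. Pcbp2, which delivers iron to ferritin, had 0.50 for KLF1-ER and 6.43 for the mutant at 0.59 kb upstream. Nfe2l2 (NRF2), an activator of Hmox1 and ferritin genes, had 5.10 and 7.26 at 0.11 kb upstream, and Bach1, a heme-sensing repressor of the same genes, 0.91 and 5.06 at 1.26 kb upstream. Ncoa4, the receptor that sends ferritin to the lysosome, had 2 such sites, with 2.91 and 5.34 at 0.14 kb downstream. Blvrb (biliverdin reductase B), like Abcb10, had both kinds within 10 kb, and how many of all genes do was not counted. It had 5.29 for KLF1-ER and 2.64 for the mutant at 0.09 kb downstream, and 5.98 and 6.99 at 1.00 kb upstream. The latter difference of 1.01 fell to 0.50 with the added scaling, and that of the Abcb10 intron site fell to 0.60. Fech, which inserts iron into protoporphyrin to form heme, had 2 sites, both higher for the mutant (2.08 and 5.09 at 3.33 kb downstream). At 5 of the 16 sites, those of Blvra, Exoc6, Lyrm4, 1 of Fech and 1 of Ftl1, the KLF1-ER value was the column's lowest, so the difference depends on that floor. The KLF1-ER values at Pcbp2 and Bach1 were near it, as at Slc25a37, and their differences carry the same limit. With the added scaling 13 sites were higher for the mutant, without 2 of Blvrb and 1 of Ncoa4.

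The purine form lay within 50 bp of the midpoint at 9 of the 16 mutant-higher sites of this list and at none of the 8 KLF1-ER-higher ones, while the pyrimidine form lay at 6 of those 8 and at 7 of the 16 mutant-higher sites. Over all sites, the purine form was at 45.9% of mutant-higher and 16% of KLF1-ER-higher sites, and the pyrimidine form at 22.9% and 60.9%. Among the iron genes proper, the purine form lay at 2 of the 4 mutant-higher sites (Tfrc and the nearer Slc25a37 site), and neither KLF1-ER-higher site, both at Abcb10, held the pyrimidine form. The Slc11a2 site, with 2 purine words, differed by under 1 and is in neither count.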

How the data were processed

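ChIP-seq of KLF1-E339K-ER and 4sU-labelled RNA were sequenced on the Ion Proton. As the authors describe, reads were mapped to mm9 (TopHat2 2.0.10, per the labels, and TMAP), peaks were found with MACS2 and GEM, DiffBind merged them, and limma-voom fitted the RNA. The values used were deposited by the authors on the log2 scale: a mean log2 CPM per gene, the same in both RNA tables, and a mean log2 concentration per site for each protein. The remaining columns hold the authors' comparisons (log2 fold changes, t statistics, p-values and FDR) and an overall mean concentration, none of them used. Versions of DiffBind and limma, the counting tool, the annotation and the number of KLF1-ER libraries are not given in the sources used here.

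Concentrations were subtracted (wild type minus mutant), levels were set per kb, and motifs were searched within 50 bp of site midpoints in NCBIM37, with annotation from GENCODE M1 (Python 3.11.15, pandas 2.3.3, numpy 2.4.6, matplotlib 3.10.9). All 20 chromosomes' sites fell inside that assembly. Gene tables were joined on identifier, length and level, since 779 genes differed in symbol. Motif search and counting were tested on simulated data. Named were all 10 genes and their sites, and from the wider list those with a site and the 3 highest and lowest by level per kb. Members and lists were chosen with earlier results of these data known. Alternatives changed the distance, difference, window, scaling and level rules.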

Additional observations from a re-analysis of the deposited data

How the results depend on the processing

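With no replicate values, no alternative tests the spread between libraries, and the depth behind low concentrations is unknown. No paired analysis was possible because the results come from no test. Within 100 kb of an annotated TSS, whichever gene is closest, there were 25 sites in place of 8, with 8 higher for KLF1-ER and 12 for the mutant in place of 2 and 4 (28.7% and 61.5% of all sites). With a difference of at least 2 the mutant-higher count was 2 of 8, beside 55.3% of all sites. With the higher concentration at 5 or more the counts were 1 for KLF1-ER and 2 for the mutant of 5 sites left, beside 30.5% and 59.5% of the 3632 left in all. The rules of a larger difference and of a minimum concentration admit fewer sites by construction. Set against the 90th percentile of each column (which moved each difference by 0.51 towards KLF1-ER and was chosen after seeing the data), the mutant-higher count was 2 and the KLF1-ER-higher count 3, while all sites split 31% to 58.3%. The other counts, of sites within 10 kb, sites by the sign alone, motif matches in wider windows and genes above the median level, stayed within 1.5 times. Leaving out sites at the lowest value of a column removed none of the 8 and says nothing about them. Without gene length 7 of the 10 percentiles moved by 10 points or more. Aco1 went from percentile 51.4 per kb to 76.4, and Ireb2 from 60.6 to 82.1. Among genes with a mean log2 CPM of at least 0, 7 of the 10 genes were above the median, with Slc40a1 (13.7), Steap3 (48.6) and Aco1 below it.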

Other observations

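Within 100 kb of the Tfrc start on either side there were 10 sites, the most of the 10 genes. The same count was not made over all listed genes, so whether 10 is many is not known. Of the 8 assigned to Gm10818, all downstream of the Tfrc gene, 6 were higher for the mutant and 2 for KLF1-ER. Over all sites the shares were 61.5% and 28.7%. At 5 of the 6 mutant-higher sites the KLF1-ER value was the lowest of its column, -0.09, so their differences depend on that floor. The widest difference was at 89.56 kb from the Tfrc TSS, with 6.33 for the mutant and -0.09 for KLF1-ER. The sites higher for KLF1-ER lay between these, at 63.32 kb (5.08 for KLF1-ER and 2.74 for the mutant) and at 64.16 kb (5.64 and 4.04). The site with the most signal of KLF1-ER in this window was 99.09 kb upstream, assigned to Zdhhc19, with 7.33 for KLF1-ER and 6.87 for the mutant. These sites were chosen after their values were seen.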
